A study of Mus musculus with 20 samples.

Results

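The genes described here encode 10 cytosolic aminoacyl-tRNA synthetases: Aars, Cars, Gars, Iars, Lars, Mars, Nars, Sars, Wars and Yars. They were taken by gene name from the array annotation and make up 10 of the 27827 gene names and 21 of the 41174 probes on an Agilent whole mouse genome array. RNA came from whole kidney of male C57BL/6 mice aged 8 to 12 weeks, in 5 groups of 4 arrays. Control mice had neither renal ischemia nor hemin. IRI (ischemia/reperfusion injury) mice had both renal pedicles clamped for 45 min and were killed after 6 h of reperfusion. IRI+Hemin mice received 25 mg/kg hemin intraperitoneally 24 h before the same surgery, and Hemin mice received the same dose with no ischemia. IPC+IRI (ischemic preconditioning) mice had a 15 min clamp 7 days before the injury. The paper describes no sham operation, so anesthesia and opening of the abdomen may also separate the injured groups from Control. The 4 arrays of a group shared 1 slide that held no other group, and the effects of slide and group cannot be told apart. Control and IRI arrays were read by the scanner on day 1 of 3, those of IRI+Hemin on day 2 and those of the last 2 groups on day 3.

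An aminoacyl-tRNA synthetase joins 1 amino acid to the transfer RNAs that carry it, and the ribosome depends on these charged tRNAs at every codon. In the cytosol the enzymes for isoleucine, leucine and methionine (Iars, Lars, Mars) sit in a large multisynthetase complex, whereas those for alanine, cysteine, glycine, asparagine, serine, tryptophan and tyrosine (Aars, Cars, Gars, Nars, Sars, Wars, Yars) act outside it. When cells are short of amino acids or carry unfolded proteins, or when heme is low, kinases of the translation factor eIF2 slow general protein synthesis while the transcription factor ATF4 is made, and genes of many cytosolic synthetases are among the known targets of ATF4. Wars is also a known interferon-induced gene, and the Gars gene encodes the glycine enzyme of the mitochondria too.

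Every value below is the log2 of the mean processed signal of a gene's probes over the 75th percentile of all probes on that array, so that 0 is the 75th percentile and a difference of 1 is a 2-fold change. All 10 genes were well above the local background on all 20 arrays, and 0 of their spots were saturated. Levels of different genes rest on different probes and were not set against each other. The labelled tissue was checked against kidney markers: all 5 proximal tubule genes, and all 3 genes each of thick limb and distal tubule, collecting duct, podocyte and endothelium, were well above background on every array. The share of genes well above background was 57.4% to 67.4% per array. It was 63.3% to 64.1% on Control arrays and lower on all 4 IRI arrays, at 57.4% to 62.1%, and the part of this in the comparison of the 2 groups was not tested. Pearson correlations between arrays of a group were 0.975 to 0.995 over 14534 genes. The mean log2 level of 9 leukocyte genes was −2.67 to −2.58 on Control arrays and −2.82 to −2.24 on Hemin arrays. With injury it was −2.03 to −1.46 (IRI), −1.92 to −0.95 (IRI+Hemin) and −1.90 to −0.41 (IPC+IRI). On Control arrays 7 to 9 of the 9 genes were well above background, so the Control mean can include dim genes. In IRI against Control, 3 of the 8 leukocyte genes tested were called higher and 1 lower. Their median difference was −0.07, so the higher mean in IRI was not shared by most of the list. The median against Control was 0.56 in IRI+Hemin (4 higher, 1 lower) and 1.41 in IPC+IRI (5 higher, 1 lower). The mean of the 5 proximal tubule genes was 5.73 to 5.88 over the Control and Hemin arrays and 5.13 to 5.58 over those of the 3 injured groups. In IRI against Control, Lrp2 (−0.95) and Cubn (−0.54) were called lower, and Slc5a2 (−0.41), Slc34a1 (−0.05) and Slc22a6 (0.05) were not called. Slc34a1 was called lower in Hemin than in Control (−0.54), and lower in IPC+IRI (−0.70) and IRI+Hemin (−0.91) than in IRI. Slc22a6 was also called lower in IPC+IRI than in IRI (−0.48), while Cubn was called higher (0.44). Lrp2 was called higher in IRI+Hemin than in IRI (0.34). The mean of the 3 endothelial genes was −0.92 to −0.21 (Control), −0.44 to 0.10 (IRI), −0.71 to −0.05 (IRI+Hemin), −1.67 to −0.28 (IPC+IRI) and −1.19 to −0.67 (Hemin). Among these, Cdh5 was called higher in IRI than in Control (1.39) and lower than in IRI with IPC+IRI (−1.54) and IRI+Hemin (−1.30), Pecam1 was called lower in IPC+IRI than in IRI (−1.16), and Kdr was called lower in IRI than in Control (−0.44) and higher in IRI+Hemin than in IRI (0.73). The collecting duct gene Aqp2 was called higher in IRI than in Control (1.23), and Atp6v1b1 of the same list lower (−0.61). In whole kidney, fewer cells of a type and less RNA per cell cannot be told apart, and the part of these cell markers in the results was not tested.

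A dim area on 2 of the IRI+Hemin arrays touches 3 of the genes. On replicates 2 and 4 of IRI+Hemin, 1796 and 1839 of the 43379 spots (4.14% and 4.24%) had a local median more than 0.5 log2 units below the array as a whole, the local median being taken over the 50 nearest spots after each spot was set against its median over the 20 arrays. On the other 18 arrays 0 spots did, and 1410 spots were dim on both. The Mars probe A_51_P479902 had local medians of −1.23 and −1.05 on replicates 2 and 4 and of 0.23 and 0.18 on replicates 1 and 3. The local medians of the single Nars probe were −1.15 and −0.55 against 0.07 and 0.18, and those of the Wars probe A_52_P139579 were −1.19 and −0.63 against 0.13 and 0.04. The other 18 probes lay outside the area, with local medians of −0.436 to 0.311 over all 20 arrays. The main results for Mars, Nars and Wars are therefore given with and without those replicates, which also enter the error that all comparisons share.

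**Figure D1:**
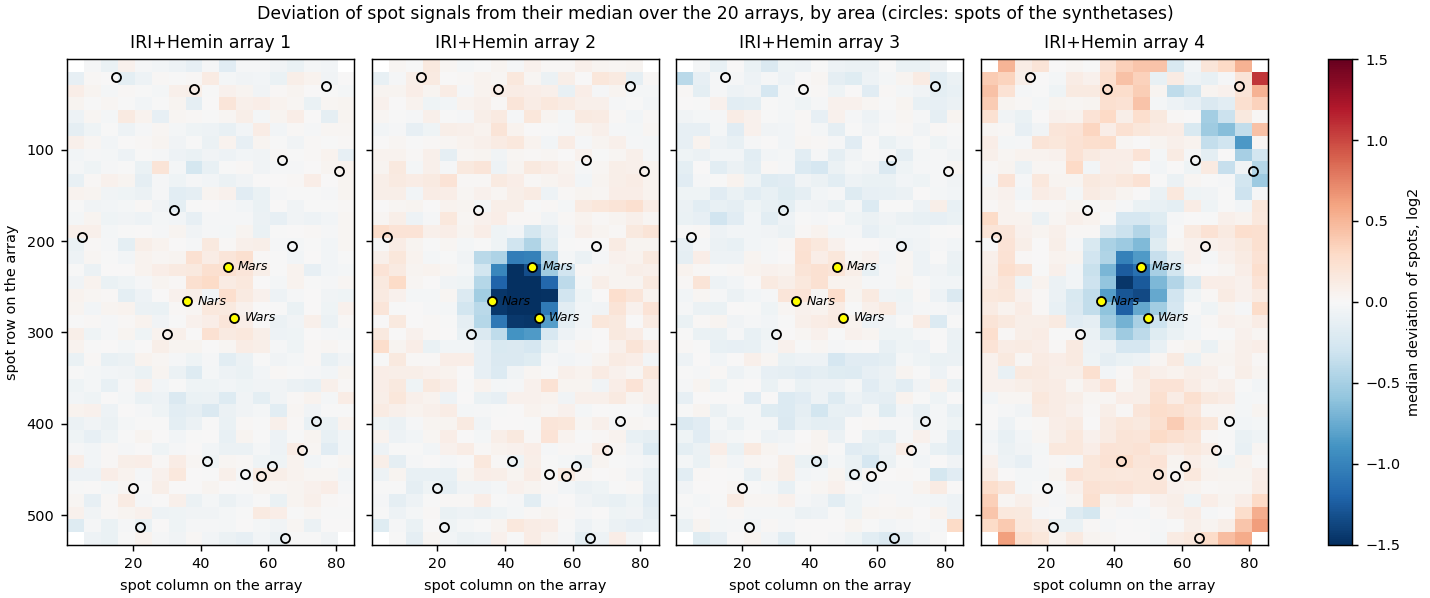
Map of the surface of the 4 IRI+Hemin arrays, by spot column (x axis) and spot row (y axis), where colour is the median log2 deviation of the spots in each area from their median over the 20 arrays and circles mark the spots of the 10 genes (yellow for the 3 probes in the dim area). A dim patch is seen on replicates 2 and 4, where the Mars, Nars and Wars probes had local medians of −1.23 to −0.55, and not on replicates 1 and 3.

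The question of the first comparison is which genes differ after 6 h of reperfusion from kidneys that had no ischemia. All 10 synthetases had a higher mean in IRI than in Control, and 6 passed the test: Cars, Aars, Gars, Sars, Yars and Iars. In this comparison 17.1% of the 17719 genes tested were called higher and 33.9% lower, at a Benjamini-Hochberg adjusted p below 0.05 in limma. The median difference of the 10 genes was 0.55, beside −0.17 over all genes tested. Of the genes whose enzymes act outside the complex 5 of 7 were called, and of those in the complex 1 of 3.

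**Figure D2:**
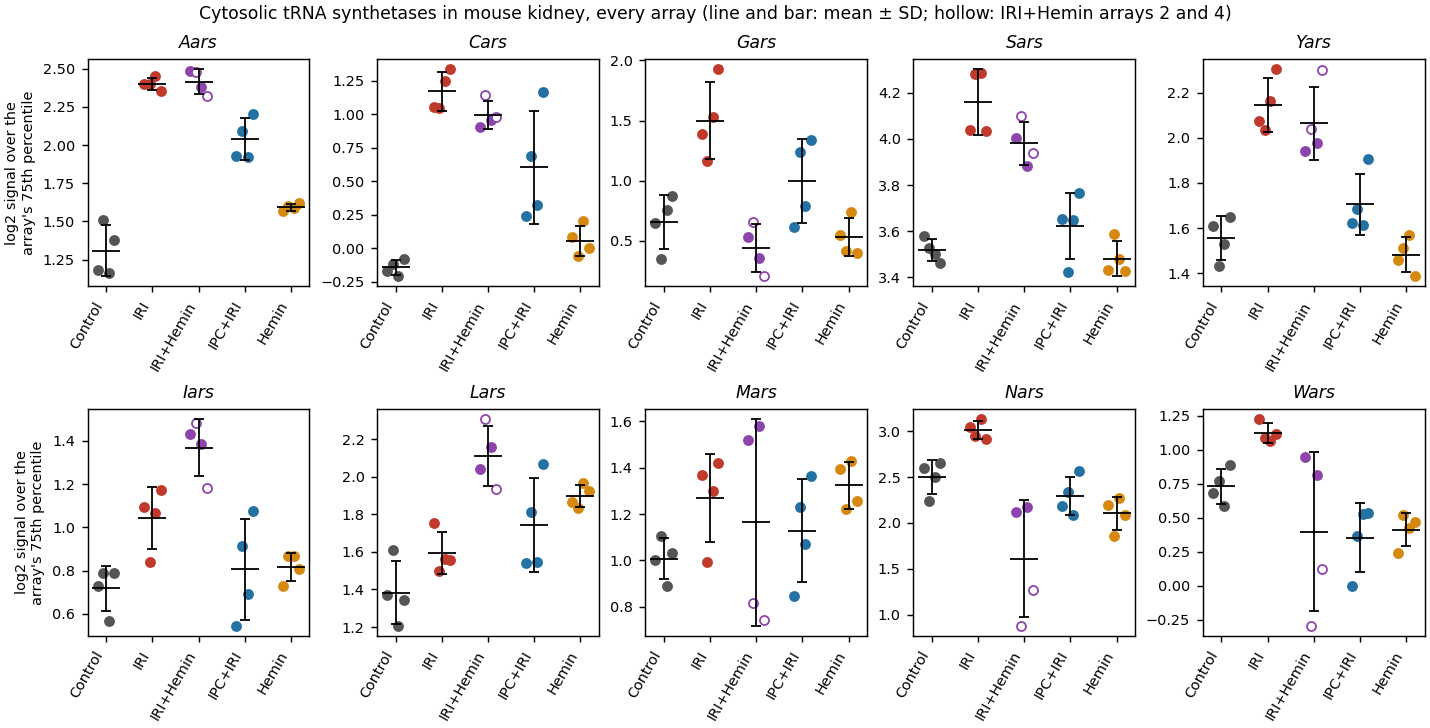
Log2 level (y axis, relative to the 75th percentile of the array) of each of the 10 synthetase genes in the 5 groups (x axis), with 1 point per array (hollow for IRI+Hemin replicates 2 and 4), a line at the group mean and a bar for its SD (n = 4). The 4 IRI arrays lie above all 4 Control arrays for Aars, Cars, Gars, Iars, Nars, Sars, Wars and Yars. The share of all genes with such groups is not given.

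Cars, the cysteine enzyme, had the widest difference of the 10. Its levels were −0.17, −0.12, −0.21 and −0.08 in Control and 1.05, 1.05, 1.25 and 1.33 in IRI. The groups did not overlap, and the difference was 1.31 ± 0.15 (SE, adjusted p = 2.05e-06), a 2.49-fold rise. Aars, the alanine enzyme, was at 1.18, 1.51, 1.16 and 1.38 in Control and at 2.40, 2.40, 2.45 and 2.35 in IRI. All IRI arrays were above all Control arrays, with a difference of 1.09 ± 0.09 (SE, adjusted p = 8.29e-08), or 2.13-fold. Gars, the glycine enzyme, was at 0.65, 0.35, 0.76 and 0.87 in Control and at 1.39, 1.16, 1.53 and 1.92 in IRI. Again no array overlapped, and Gars rose by 0.84 ± 0.18 (SE, adjusted p = 0.000821).

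Sars, the serine enzyme, was at 3.58, 3.53, 3.50 and 3.46 in Control and at 4.04, 4.28, 4.28 and 4.03 in IRI. Its difference of 0.64 ± 0.09 (SE, adjusted p = 2.68e-05) was several times the SD within either group, which was 0.05 in Control and 0.14 in IRI. Yars, the tyrosine enzyme, went from 1.61, 1.43, 1.53 and 1.65 in Control to 2.08, 2.03, 2.16 and 2.30 in IRI. No arrays overlapped, and the difference was 0.59 ± 0.10 (SE, adjusted p = 0.000127). Iars, of the complex, was at 0.73, 0.79, 0.57 and 0.79 in Control and at 1.09, 0.84, 1.07 and 1.17 in IRI. The lowest IRI array lay just above the highest Control array, and the difference of 0.32 ± 0.11 (SE, adjusted p = 0.0245) was the smallest called. Iars depended most on the processing: over 22 settings its difference ran from −0.0069 to 0.77 and it was called in 12, whereas Cars, Gars, Sars and Yars were called in all 22 and Aars in 21 (adjusted p up to 0.0757).

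Of the 4 genes that did not pass, 2 had groups that did not overlap. The share of all genes without overlap is not given here, so such counts have no background beside them. Nars, the asparagine enzyme, was at 2.60, 2.23, 2.50 and 2.65 in Control and at 3.05, 2.95, 3.14 and 2.91 in IRI, a difference of 0.52 ± 0.22 (SE, adjusted p = 0.059). Wars, the tryptophan enzyme, was at 0.68, 0.77, 0.59 and 0.89 in Control and at 1.23, 1.09, 1.06 and 1.11 in IRI, a difference of 0.39 ± 0.20 (SE, adjusted p = 0.116). In both genes every IRI array was above every Control array. The error in the fit is shared over the 5 groups, and the SD within IRI+Hemin was 0.64 for Nars and 0.59 for Wars, the widest of the 5 groups in both. Without IRI+Hemin replicates 2 and 4 in the fit, the difference between IRI and Control passed for Nars (adjusted p = 0.00261) and for Wars (adjusted p = 0.0106). Nars also passed with the local median subtracted (0.62, adjusted p = 0.000515) and with only the 2 groups compared in the fit (0.52, adjusted p = 0.00822), and was called in 4 of 22 settings. Wars was called in 2 of 22 settings, of which leaving out those replicates was 1. Mars differed by 0.26 (95% interval −0.10 to 0.62) and Lars by 0.21 (95% interval −0.05 to 0.47), and their arrays overlapped.

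The single probes bear on how far a gene's value rests on 1 sequence. Of the 20 probes tested, 11 were called higher in IRI than in Control and 1 lower, beside 17.7% and 30.9% of all probes tested. Of the 11, the Aars probe A_52_P483339 and the Iars probe A_51_P375498 were set against Control arrays on which they were mostly or wholly not well above background. Both entered the test only through their IRI arrays. Each of the 3 Cars probes was called, with differences of 1.35, 1.36 and 1.23. The last 2 of these share 30 of their 60 bases, shown in capitals, and so are not independent sequences. They lie on the minus strand of chromosome 7 in build mm9, A_51_P374863 within 1 exon at chr7:150745052-150745111 and A_52_P682982 across an intron at chr7:150743901-150745081. They are printed because the largest difference rests on them.
Cars A_51_P374863: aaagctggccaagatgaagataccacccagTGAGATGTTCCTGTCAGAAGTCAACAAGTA
Cars A_52_P682982: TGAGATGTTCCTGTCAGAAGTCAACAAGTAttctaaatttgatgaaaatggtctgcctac

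Of the 4 Aars probes, A_52_P395397 and A_51_P409429 were called higher in IRI, by 0.94 and 1.12. A_52_P483339 was dim, well above background on 1 of the 4 Control arrays, 3 of the 4 Hemin arrays and all 12 others, and its size of difference from Control is not given for that reason. The remaining probe, A_52_P567035, was well above background on 0 arrays. Gars was read by 1 probe alone, A_52_P585475, whose ends lie at chr6:55019476-55023387 on the plus strand of mm9, so that its 60 bases join exons on either side of an intron. Its sequence is given because the difference between IRI+Hemin and IRI described further on rests on it.
Gars A_52_P585475: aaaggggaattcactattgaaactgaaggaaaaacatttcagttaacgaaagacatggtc

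The Iars probe A_51_P375498, designed on the transcript AK010975 and placed at chr13:49817815-49817874, was not well above background on any Control array. Its mean in IRI was at least 3.07-fold higher than in Control, and in IRI+Hemin at least 2.29-fold higher. Each Control array was counted at its measured signal or at the lowest well above background on that array, whichever was higher. In Hemin and IPC+IRI, with 3 of 4 arrays well above background, the same ratio was 1.63 and 1.56 and is no bound. The other 2 Iars probes, A_51_P124505 and A_52_P200617, differed between IRI and Control by 0.28 and 0.31, and A_52_P200617 was called (adjusted p = 0.0345).

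The next comparison asks how preconditioned kidneys differ from kidneys with the same injury alone, and uses the same IRI arrays as the first. Of the 10 genes, 7 were lower in IPC+IRI than in IRI (Wars, Nars, Cars, Sars, Gars, Yars and Aars) and 0 were higher, where 17.8% of all genes tested were called lower and 26.3% higher. The median difference was −0.47, beside 0.09 over all genes tested. The 3 genes of the complex were not called: Iars differed by −0.24 (95% interval −0.48 to 0.004), Mars by −0.14 (−0.50 to 0.22) and Lars by 0.15 (−0.11 to 0.41). With the mean of log2 values over probes, Iars was called lower (−0.48, adjusted p = 0.00848) and Lars higher (0.63, adjusted p = 0.00199), and Iars was also called lower without IRI replicate 2 (−0.31, adjusted p = 0.0498) or IPC+IRI replicate 4 (−0.33, adjusted p = 0.0293).

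Wars was at −0.01, 0.36, 0.52 and 0.53 in IPC+IRI. All 4 arrays were below the 4 IRI arrays, and the difference was −0.77 ± 0.20 (SE, adjusted p = 0.00532). Nars was at 2.18, 2.34, 2.09 and 2.57 in IPC+IRI, also below every IRI array, with a difference of −0.72 ± 0.22 (SE, adjusted p = 0.0134). Both of these genes had a mean below Control in IPC+IRI, by 0.38 for Wars and 0.20 for Nars, and neither difference from Control passed the test (adjusted p = 0.122 and 0.452). Without IRI+Hemin replicates 2 and 4 in the fit that of Wars passed (adjusted p = 0.012). Sars was at 3.65, 3.42, 3.65 and 3.77 in IPC+IRI, which spans the Control arrays and lies below IRI by 0.54 ± 0.09 (SE, adjusted p = 0.000256). Yars was at 1.62, 1.68, 1.61 and 1.90, below every IRI array, and differed by −0.44 ± 0.10 (SE, adjusted p = 0.00221).

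Cars spread most within IPC+IRI, at 0.24, 0.69, 0.32 and 1.17. Replicate 4 lay within the IRI range and the other 3 below it, and the mean was lower than IRI by 0.57 ± 0.15 (SE, adjusted p = 0.00573). Gars had the same replicates high and low, at 0.61, 1.24, 0.79 and 1.34, with a difference from IRI of −0.50 ± 0.18 (SE, adjusted p = 0.03). Gars was called in 14 of 22 settings here, and the call was lost without IRI replicate 3 or 4 or IPC+IRI replicate 1 or 3 (adjusted p = 0.0591 to 0.110). Aars was at 1.93, 2.09, 1.92 and 2.21, below IRI by 0.36 ± 0.09 (SE, adjusted p = 0.00463). Aars was called in 18 of 22 settings here, and its difference turned to 0.052 with the mean of log2 values over probes. Its probes were not alike here, with a difference of 0.68 (95% interval 0.07 to 1.30) for A_52_P483339, −0.39 for A_52_P395397 and −0.36 for A_51_P409429, of which the last passed the test. Against Control, 3 genes were higher in IPC+IRI, Cars by 0.75 ± 0.15, Aars by 0.73 ± 0.09 and Lars by 0.36 ± 0.12 (SE, adjusted p = 0.000457, 6.29e-06 and 0.0195), where 23.2% of all genes tested were called higher and 32.8% lower. Lars was called in 16 of 22 settings there and lost the call without Control replicate 3 (0.30, adjusted p = 0.0678) or IPC+IRI replicate 4 (0.25, adjusted p = 0.0844) and with quantile normalization (0.24, adjusted p = 0.127). Without scaling between arrays 0 of the 10 genes were called in IPC+IRI against IRI, with differences of −0.45 to −0.04 for these 7, while the median over all genes moved from 0.09 to 0.41. With the deposited matrix, in which 18.1% of values are blank, 2 of the 10 were called.

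**Figure D3:**
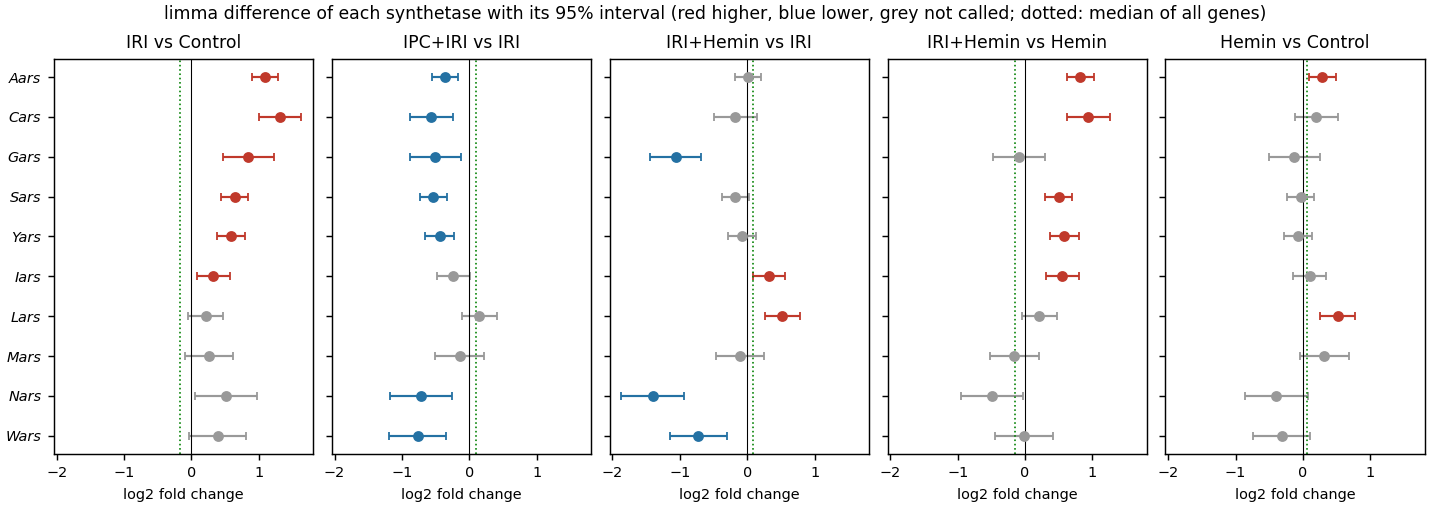
Log2 difference (x axis) of each of the 10 genes (y axis) between groups, in 5 comparisons, with its 95% interval from the limma fit over 20 arrays, in red where called higher, blue where called lower and grey where not called (dotted line, median of all genes). IRI vs Control lies right of 0 for all 10 genes, and IPC+IRI vs IRI lies left of 0 for all but Lars.

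Kidneys given hemin before the injury were then compared with the same IRI arrays. Gars, Nars and Wars were called lower in IRI+Hemin, and Iars and Lars higher, counts not far from the background, since 18.1% of all genes tested were called lower and 26.3% higher. Without IRI+Hemin replicates 2 and 4, Gars, Nars and Lars were called, and Wars and Iars were not. The 4 genes with the other large differences between IRI and Control had means close to IRI. Aars differed from IRI by 0.02 (95% interval −0.18 to 0.21), Yars by −0.08 (−0.29 to 0.14), Cars by −0.17 (−0.49 to 0.14) and Sars by −0.18 (−0.38 to 0.02).

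Gars was at 0.53, 0.66, 0.36 and 0.21 in IRI+Hemin. All 4 arrays were below the 4 IRI arrays and reached down past the lowest Control array, and the difference from IRI was −1.06 ± 0.18 (SE, adjusted p = 0.000184), a 2.09-fold lower level. Its probe lay outside the dim area, and without IRI+Hemin replicates 2 and 4 the difference was −1.05 (adjusted p = 0.00253). Gars in IRI+Hemin was also close to its level in Hemin without injury, which was 0.55, 0.42, 0.74 and 0.40, a difference of −0.09 (95% interval −0.47 to 0.29). The difference of Gars between injured and uninjured kidneys was thus 0.84 without hemin and −0.09 with it, and the test of the interaction of hemin and injury gave −0.93 ± 0.26 (SE, adjusted p = 0.0318). In that test 1.96% of the 19064 genes tested were called in this direction and 5.84% in the other, and Gars was the only member called. It was called in 15 of 30 settings, and lost with 1 of several arrays left out and without IRI+Hemin replicates 2 and 4 (−0.93, adjusted p = 0.0799).

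Nars was at 2.12, 0.88, 2.17 and 1.26 in IRI+Hemin, with the 2 lowest values on the replicates with the dim area. All 4 arrays were below every IRI array. The difference from IRI was −1.40 ± 0.22 (SE, adjusted p = 9.39e-05) over all arrays and −0.86 (adjusted p = 0.000882) without replicates 2 and 4. Subtracting the local median from each spot gave −1.06 (adjusted p = 7.87e-06). The interaction of hemin and injury in Nars was −1.01 ± 0.31 (SE, adjusted p = 0.056) over all arrays, −0.47 (adjusted p = 0.201) without the 2 arrays and −0.76 (adjusted p = 0.0151) with the local median subtracted.

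Wars was at 0.95, −0.30, 0.81 and 0.12 in IRI+Hemin. Replicates 2 and 4 were again the lowest. The difference from IRI was −0.73 ± 0.20 (SE, adjusted p = 0.00762) over all arrays, −0.24 (adjusted p = 0.209) without those replicates and −0.30 (adjusted p = 0.0481) with the local median subtracted. Its probe outside the area, A_52_P35174, differed by −0.10 (95% interval −0.50 to 0.31). Against Hemin alone, Wars differed by −0.02 over all arrays, and by 0.47 (adjusted p = 0.0191) in the opposite direction without replicates 2 and 4.

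Mars was at 1.52, 0.82, 1.58 and 0.74 in IRI+Hemin. Replicates 1 and 3 were above every IRI array and replicates 2 and 4 below. The 2 Mars probes differ in the same way: A_52_P44760, outside the dim area, was higher than in IRI by 0.52 ± 0.15 (SE, adjusted p = 0.00823), and A_51_P479902, inside it, had a difference of −0.63 ± 0.30 (SE, adjusted p = 0.0909). The gene as a whole differed by −0.11 over all arrays and by 0.28 (adjusted p = 0.15) without replicates 2 and 4.

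Iars and Lars, of the complex, were higher in IRI+Hemin than in IRI. Iars was at 1.43, 1.48, 1.38 and 1.18, with all 4 arrays above the highest IRI array and replicate 4 only just. The difference was 0.33 ± 0.11 (SE, adjusted p = 0.0279), and without replicates 2 and 4 it was 0.36 (adjusted p = 0.0546). The call of Iars held in 13 of 22 settings and was lost without IRI replicate 2 or IRI+Hemin replicate 1, 2 or 3 (adjusted p = 0.0508 to 0.0943), and the difference was 0.04 (adjusted p = 0.833) with the mean of log2 values over its probes. Lars was at 1.37, 1.61, 1.21 and 1.34 in Control, 1.75, 1.50, 1.56 and 1.56 in IRI, and 2.04, 2.31, 2.16 and 1.93 in IRI+Hemin. The IRI+Hemin arrays were above all arrays of both other groups, and the difference from IRI was 0.52 ± 0.12 (SE, adjusted p = 0.00257).

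The 3 Lars probes did not move alike. The probe nearest the start of the transcript, A_51_P470589, joins 2 exons at chr18:42403501-42404419 on the minus strand of mm9. It read −2.50, −1.55, −2.60 and −2.51 in Control and −3.37, −3.11, −3.15 and −2.61 in IRI, against −0.96, 0.31, 0.07 and −0.62 in IRI+Hemin. All IRI+Hemin arrays were above every array of Control and IRI. It was at −1.16, −0.96, −1.14 and −1.33 in IPC+IRI and at −1.53, −2.02, −2.10 and −2.77 in Hemin. The probe was lower in IRI than in Control by 0.77 ± 0.29 (SE, adjusted p = 0.0368), higher in IRI+Hemin than in IRI by 2.75 ± 0.29 (SE, adjusted p = 2.53e-06) and higher in IPC+IRI than in IRI by 1.91 ± 0.29 (SE, adjusted p = 6.58e-05). The second probe, A_51_P168123, differed between IRI+Hemin and IRI by −0.06 (95% interval −0.32 to 0.20), and the third, A_52_P500488, was higher by 0.63 ± 0.14 (SE, adjusted p = 0.00154). The value of Lars is the log2 of the mean signal of these 3. Whether A_51_P470589 reads transcripts of Lars was not tested, and its values are those of the probe. Over all members, 7 of the 20 single probes tested were called between IRI+Hemin and IRI, 4 higher and 3 lower, beside 26.8% and 20.1% of all probes tested.

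**Figure D4:**
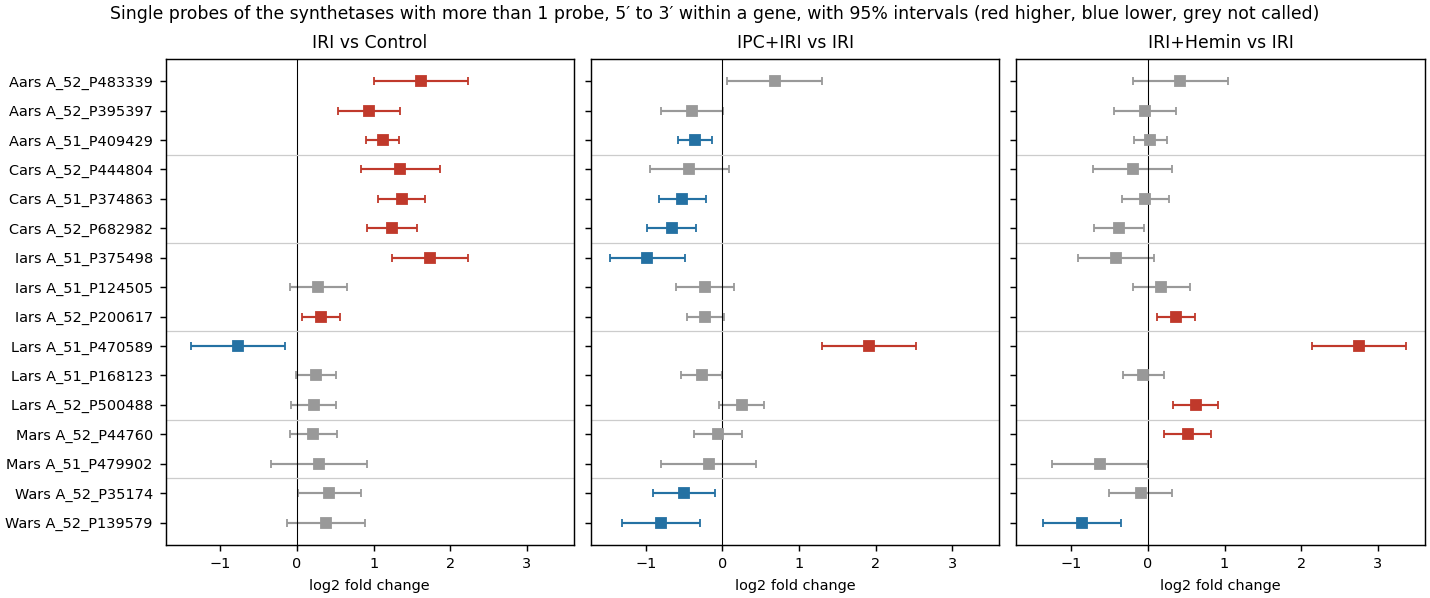
Log2 difference (x axis) of the tested probes of the genes with more than 1 probe (y axis, in order along each transcript), with its 95% interval, in 3 comparisons, in red where called higher, blue where called lower and grey where not called. In IRI vs Control the Cars probes and the Aars probes A_52_P395397 and A_51_P409429 lie right of 0 (A_52_P483339 of Aars and A_51_P375498 of Iars were well above background on 1 and 0 of the 4 Control arrays), and the first Lars probe lies at 2.75 in IRI+Hemin vs IRI while the second lies at −0.06.

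In Hemin without injury, Aars and Lars were higher than in Control and 0 of the 10 genes were lower. This count is near the background, since 18.5% of all genes tested were called higher and 17.6% lower. Aars was at 1.57, 1.60, 1.58 and 1.62 in Hemin, above every Control array, by 0.29 ± 0.09 (SE, adjusted p = 0.0243). Lars was at 1.87, 1.83, 1.97 and 1.93, also above every Control array, by 0.52 ± 0.12 (SE, adjusted p = 0.004). Of the 3 Lars probes, A_52_P500488 alone was called (0.67, adjusted p = 0.00164). The count of called genes moved between 0 and 6 with the processing, and Aars was called in 12 of 22 settings and Lars in 20. Without IRI+Hemin replicates 2 and 4 in the fit, Mars passed as higher in Hemin than in Control (0.32, adjusted p = 0.0448), and Nars (−0.39, adjusted p = 0.0217) and Wars (−0.32, adjusted p = 0.0431) as lower.

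Among mice that all had hemin, 5 genes were higher with injury than without it, where 16.5% of all genes tested were called higher and 27.9% lower. Cars was higher in IRI+Hemin than in Hemin by 0.94 ± 0.15 (SE, adjusted p = 0.000106), its Hemin arrays being at 0.08, −0.06, 0.20 and 0.01 and its IRI+Hemin arrays at 0.91, 1.14, 0.96 and 0.98. Aars was higher by 0.82 ± 0.09, Yars by 0.58 ± 0.10, Iars by 0.55 ± 0.12 and Sars by 0.50 ± 0.09 (SE, adjusted p = 3.7e-06, 0.000223, 0.000984 and 0.000448). In each of these 5 the groups did not overlap, a count given without its share over all genes. They are the genes called between IRI and Control with the exception of Gars, and for none of the 5 did the test of the interaction pass, with estimates of −0.37 (95% interval −0.83 to 0.08) for Cars, −0.27 (−0.55 to 0.01) for Aars, −0.005 (−0.31 to 0.30) for Yars, 0.23 (−0.12 to 0.57) for Iars and −0.14 (−0.42 to 0.14) for Sars. Between IPC+IRI and Hemin, Cars and Aars were higher, by 0.55 ± 0.15 and 0.44 ± 0.09 (SE, adjusted p = 0.0093 and 0.0014), where 13.2% of all genes tested were called higher and 22.8% lower.

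The order of the groups differs between genes. Aars was highest in IRI+Hemin and IRI, which did not differ, then fell through IPC+IRI and Hemin to Control with each step past the threshold (adjusted p = 0.00463, 0.0014 and 0.0243). Sars and Yars had IRI and IRI+Hemin on top with no difference between them, a step down to IPC+IRI (adjusted p = 0.0207 for Sars and 0.0293 for Yars), and no further step between neighbours that passed down to Control and Hemin. In IPC+IRI against IRI+Hemin 4 of the 10 genes were called lower and 0 higher, where 5.61% of all genes tested were called lower and 6.43% higher. The step of Sars was lost without IRI+Hemin replicate 2 or IPC+IRI replicate 2 (adjusted p = 0.0662 and 0.0645), and that of Yars without IRI+Hemin replicate 2 or 4 or IPC+IRI replicate 1, 2 or 3 (adjusted p = 0.0569 to 0.073). For Gars the step from IRI to IPC+IRI was the only 1 between neighbours that passed. For Iars it was that from IRI+Hemin to IRI, and for Cars that from IPC+IRI to Hemin. In Lars, Mars, Nars and Wars no step between neighbours passed the test over all arrays, although in Nars and Wars the neighbours IRI and Control did not overlap. Without IRI+Hemin replicates 2 and 4 the steps of Aars, Gars and Cars that passed were the same. Those of Sars, Yars and Iars, whose probes lie outside the dim area, no longer passed with 2 arrays in that group: the step was 0.32 in place of 0.36 in Sars (adjusted p = 0.119), 0.25 in place of 0.36 in Yars (adjusted p = 0.206) and 0.36 in place of 0.33 in Iars (adjusted p = 0.0546). Nars then ran from IRI through Control, IPC+IRI and IRI+Hemin to Hemin, with the step from IRI to Control past the threshold (adjusted p = 0.00261). Wars ran from IRI through IRI+Hemin, Control and Hemin to IPC+IRI, with the step from Control to Hemin past it (adjusted p = 0.0431). Mars was highest in IRI+Hemin without those arrays, and no neighbouring groups of Mars or Lars differed.

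Over the 20 arrays, the level of each gene was compared with the mean of the other 9 after each was centred. Pearson's r was 0.85 for Cars, 0.78 for Yars, 0.76 for Sars and Aars, 0.60 for Gars, 0.59 for Iars, 0.47 for Wars, 0.41 for Mars, 0.25 for Nars and 0.11 for Lars. These values share arrays, scaling and the group differences above and are given as a description. Over the 18 arrays without IRI+Hemin replicates 2 and 4, r was 0.95 for Cars and Yars, 0.85 for Aars, 0.83 for Sars, 0.74 for Iars, 0.65 for Wars, 0.64 for Gars, 0.56 for Nars, 0.50 for Mars and 0.17 for Lars. The 5 genes outside the lists with the closest likeness to the mean of the 10, among 14425 genes compared, were Plekhg1 (r = 0.93), Tlk2 (0.93), Phc2 (0.93), AK160323 (0.92) and Rnmt (0.92). All 5 had their highest mean in IRI. Plekhg1, for example, had a mean of −1.01 in IRI, against −1.98 in Control, −1.91 in Hemin, −1.27 in IRI+Hemin and −1.74 in IPC+IRI. Without replicates 2 and 4 of IRI+Hemin only Rnmt stayed among the closest 5 (r = 0.95), beside Gnl3 (0.97), Rasip1 (0.95), Hmox1 (0.94) and Nob1 (0.94), and the first 5 genes had r of 0.93 to 0.95.

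The other synthetases were read as 2 lists. Of the other 10 cytosolic synthetase genes, 3 were higher in IRI than in Control and 0 lower, with a median of 0.24: Tars, the threonine enzyme, by 0.66, Eprs, the joint glutamate and proline enzyme, by 0.56, and Hars, the histidine enzyme, by 0.50. Of 17 mitochondrial synthetase genes, 1 was higher (Mars2, by 0.67) and 6 were lower, with a median of −0.24 and the largest called fall in Pars2 (−0.97). The mitochondrial list thus has a count of called falls of 6 in 17, near the 33.9% of all genes that were called lower. Of the 3 scaffold genes of the complex, Aimp2, listed on the array as Jtv1, was lower by 0.41 and the other 2 were not called. In IPC+IRI against IRI, 3 of the other cytosolic genes were lower and 0 higher, among them Dars (−0.96) and Rars (−0.59). In IRI+Hemin against IRI, 1 was higher (Kars, by 0.50) and 2 lower, Dars (−0.82) and Rars (−0.72), the aspartate and arginine enzymes of the complex. Of the mitochondrial genes, Lars2, the mitochondrial leucine enzyme, was higher than in IRI by 4.83 in IPC+IRI and by 4.63 in IRI+Hemin, and in IRI against Hemin without injury the difference was −4.85. Its level was 8.24 to 9.05 on all arrays of the 3 groups scanned on days 2 and 3. On day 1 it was 2.78 to 4.39 on the IRI arrays and 4.01, 8.98, 3.97 and 3.95 on the Control arrays, of which replicate 2 lay with the groups of days 2 and 3. In IPC+IRI against IRI, 2 other mitochondrial genes were lower, Sars2 (−0.69) and Nars2 (−0.32). In IRI+Hemin against IRI, 3 mitochondrial genes in all were higher and 5 lower, with Rars2 (−1.05) and Aars2 (−1.02) lowest. Both of these have a probe in the dim area, and without replicates 2 and 4 of IRI+Hemin their differences were −0.09 and −0.04, neither called, and the list gave 1 higher (Lars2, 4.49) and 3 lower. Without those replicates the counts of the other cytosolic synthetases and of the scaffold genes were as given. Aimp1, listed as Scye1, was higher than in IRI in both, by 0.48 and 0.47, and Eef1e1 in IRI+Hemin by 0.63.

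The genes of the pathway that is known to raise synthetase genes were read beside them. Of 11 genes for eIF2 kinases and the ATF4 branch, 8 were higher in IRI than in Control and 0 lower, with a median of 0.66. Atf4 itself was at 0.46, 1.07, 0.73 and 0.51 in Control and at 2.37, 3.20, 3.18 and 3.61 in IRI, a difference of 2.40 ± 0.22 (SE, adjusted p = 1.79e-07). Its levels did not overlap between the groups. Ppp1r15a, listed as Myd116, which encodes the subunit that directs a phosphatase to eIF2, rose by 2.96, and Cebpb, a partner transcription factor, by 2.69. Of 10 stress targets of ATF4, 8 were higher and 1 lower, with a median of 1.93: Atf3 rose by 5.57, Chac1, a glutathione-degrading enzyme, by 5.36, Trib3, a pseudokinase, by 3.70 and Ddit3, the transcription factor CHOP, by 2.12, while Stc2 fell by 1.11. Of 16 amino acid synthesis and uptake genes tested, 7 were higher and 1 lower, with a median of 0.39. Mthfd2, of one-carbon metabolism, rose by 2.87 and Asns, asparagine synthetase, by 2.42, while Psph fell by 0.35.

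In IPC+IRI against IRI, 9 of 16 amino acid genes were lower and 1 higher, with Aldh18a1, of proline synthesis, at −1.27, Slc7a5, an amino acid transporter, at −1.21 and Psph at 0.52. Of the 11 eIF2 and ATF4 branch genes 3 were lower and 0 higher, among them the heme-regulated kinase Eif2ak1 (−0.74) and the endoplasmic reticulum kinase Eif2ak3 (−0.63). The 10 stress targets gave 3 lower and 3 higher, with Trib3 and Chac1 both at −1.48, Stc2 at 1.98 and Ddit4 at 1.11. In IRI+Hemin against IRI, 6 of the 11 branch genes were lower and 0 higher, with Ppp1r15a at −1.08 and Atf4 at −0.79. Atf4 was at 2.40, 2.46, 2.45 and 1.89 in IRI+Hemin, which overlapped IRI at its lowest array, and the interaction of hemin and injury in Atf4 was −1.21 (adjusted p = 0.0237). Atf4 has a probe in the dim area, and without replicates 2 and 4 of IRI+Hemin it differed from IRI by −0.67 (adjusted p = 0.0651), with an interaction of −1.09 (adjusted p = 0.0861), while 3 of the 11 branch genes were lower. Of 15 amino acid genes tested, 8 were lower and 1 higher, with Slc7a5 at −1.74, Aldh18a1 at −1.12 and Psat1, of serine synthesis, at 1.02. Of the stress targets, Trib3 had a difference of −1.25, called over all arrays and not without those replicates (−1.09, adjusted p = 0.0955), and Stc2 was higher by 1.73. The amino acid genes gave 6 lower and 1 higher without them. The shares of all genes called in these comparisons are those given above.

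**Figure D5:**
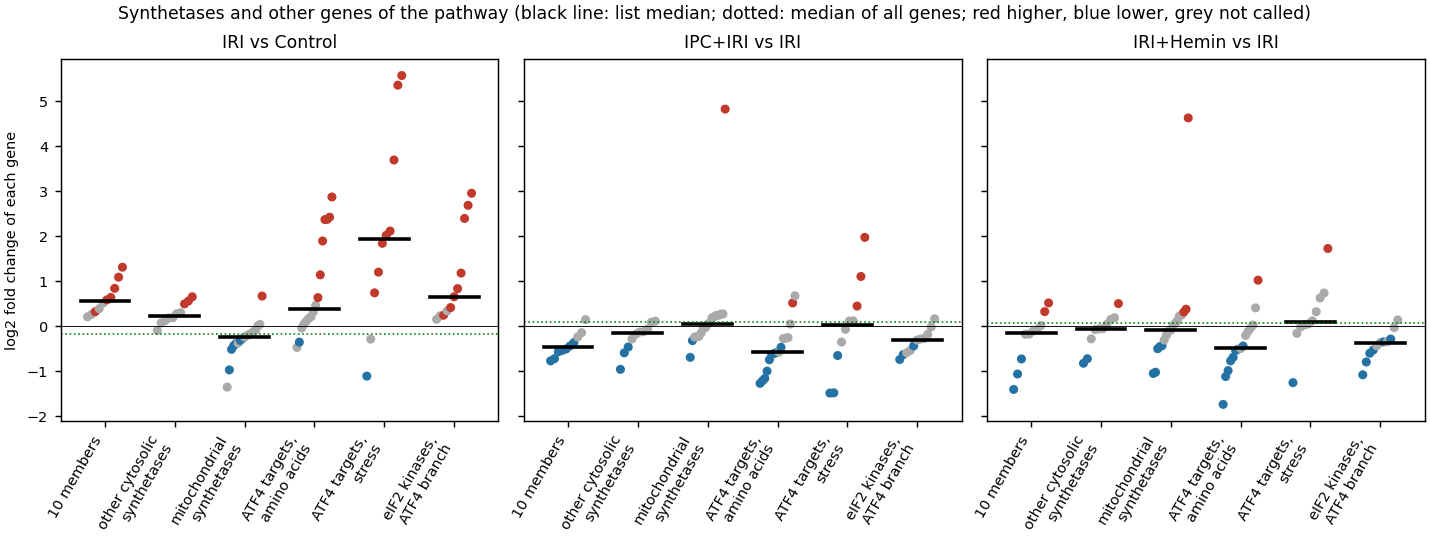
Log2 difference (y axis) of every tested gene of 6 lists (x axis) in 3 comparisons, in red where called higher, blue where called lower and grey where not called, with a black line at the list median and a dotted line at the median of all genes. In IRI vs Control the median is 0.55 for the 10 synthetases, 0.24 for the other cytosolic synthetases, −0.24 for the mitochondrial ones and 1.93 for the stress targets of ATF4.

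Promoters were looked up because 6 synthetase genes and Atf4 were called higher in the same comparison. The RefSeq table, on GRCm38.p6, gives 250 bases before and 50 after the start and has an entry for 6 of the 10 genes. The motif TGATGNAA, the form in which ATF4 with a C/EBP partner is known to bind, was searched on both strands and is found in 3.97% of all 32851 promoters of the table. It is in 4 of the 6 promoters, those of Aars, Gars, Iars and Yars, and these letters are not in the windows of Sars and Mars. It is in 1 of 7 promoters of the other cytosolic synthetases (Tars), in 0 of 14 of the mitochondrial ones, in 5 of 9 of the stress targets and in 4 of 15 of the amino acid genes. For each gene 1 window of 30 bases is shown with a match in capitals, read on the strand of the gene. TTGCATCA and TTTCATCA are the motif on the opposite strand. A match is a description of the letters and no site of binding. The windows lie at chr8:111033840-111033869 for Aars, chr6:55037960-55037989 for Gars, chr13:49682126-49682155 for Iars and chr4:129189895-129189924 for Yars, all on the plus strand.
Aars: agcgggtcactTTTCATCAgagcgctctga
Gars: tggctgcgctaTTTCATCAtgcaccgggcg
Iars: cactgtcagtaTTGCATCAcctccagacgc
Yars: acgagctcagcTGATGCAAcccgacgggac

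Since Wars is known to be induced by interferon, 12 interferon genes were read in the same way. In IRI against Control 2 were higher, Cxcl10 (3.11) and Irf1 (0.68), and 2 lower, among them Psmb9 (−0.86). These counts are not above the background, since 17.1% of all genes tested were called higher and 33.9% lower. In IPC+IRI against IRI, where Wars was lower, 2 were higher, Psmb9 (1.16) and Psmb8 (0.75), and 0 lower. There the shares of all genes tested were 26.3% higher and 17.8% lower. In IRI+Hemin against IRI 4 were lower and 0 higher, where 18.1% of all genes tested were called lower and 26.3% higher. Among the 4, Cxcl9, a chemokine, was at −3.32 and Ifit1 at −2.37. Without replicates 2 and 4 of IRI+Hemin 2 were lower, Cxcl9 and Ifit1, at −4.62 and −2.38.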

How the data were processed

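Total kidney RNA was labelled with Cy3 and hybridised by the authors to 1-colour Agilent arrays, 20 in all, which were extracted with Feature Extraction 9.5.3.1, per the labels. The deposited scanner files hold 1 intensity per spot (the processed signal, background-subtracted). The deposited series matrix holds the log2 of the same processed signal, not scaled between arrays: of its 549531 values for probes with 1 spot, 100% were within 0.001 of it. The RNA input is given differently by the sources and was not used. Coordinates of probes are those of the files (mm9).

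Control spots were left out, probes of a gene name averaged, and the log2 taken over the 75th percentile of each array. Genes with more than 1 missing value over the arrays compared were left out, as were, from each comparison, genes not well above background on at least 3 arrays of 1 of the groups. Groups were compared with limma 3.58.1 in R 4.3.3 (lmFit and eBayes, all 5 groups in 1 fit), in place of the significance analysis that the methods name, with Benjamini-Hochberg adjustment over all genes tested and a threshold of 0.05. The fit was tested on simulated data. The spread between 4 arrays sets the precision. The labels give a replicate number but do not say that it stands for a separate animal, so p-values measure the spread between these samples. The members and lists were chosen with earlier results of these data known. The text names all members, a few fixed genes of the other lists with the 2 largest called changes in each direction, and the 5 genes most like the members. Some items that this rule would name are not reported here. Alternatives were another background correction, other scalings, other ways to join probes, the deposited matrix, other filters, a replicate block, fewer samples and each array left out. Subtracting the local median of the 50 nearest spots and leaving out IRI+Hemin replicates 2 and 4 were added after seeing the data.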

Additional observations from a re-analysis of the deposited data

Results flagged for a closer look

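Singled out here are 2 values for which the effect of injury differed between mice with and without hemin in the test of the interaction itself. Of the 20 single probes tested, 3 were called there, 1 higher and 2 lower, given without the share of all probes. In Gars the interaction was −0.93 (limma, adjusted p = 0.0318). In the Lars probe A_51_P470589 it was 2.57 (adjusted p = 0.00112), where the other 2 Lars probes gave −0.19 and −0.04, neither called, and whether this probe reads transcripts of Lars was not tested. A search for single arrays standing apart from the other 3 of their group found 0 among the 50 sets of 4 levels.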

How the results depend on the processing

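Of 2390 log2 differences of single members under the alternatives, 2187 stayed on their side of the threshold, of which 103 that were called in neither changed sign. A further 143 kept the direction and lost the call, 54 gained it, and 6 that were called under 1 of the 2 settings reversed. In IRI vs Control the count of 6 members called stayed within 1.5 times under each alternative run (5 to 6 with each array left out), and single probes gave 10 to 13 in place of 12. In IPC+IRI vs Control the 3 called became 1 with the deposited matrix (2 to 4 with an array left out). In IPC+IRI vs IRI the 7 became 3 with normexp background correction, 0 without scaling between arrays and 2 with the deposited matrix (6 to 8 with an array left out). In IRI+Hemin vs IRI the 5 became 3 without scaling, 3 with only the groups compared in the fit and 3 without IRI+Hemin replicates 2 and 4 (4 to 5 with 1 array left out; single probes 6 to 8 in place of 7). In Hemin vs Control the 2 became 1 with normexp, quantile normalization, the percentile over probes well above background or the local median subtracted, 0 with the mean of log2 values over probes or the deposited matrix, 4 with only the groups compared, 5 without IRI+Hemin replicates 2 and 4 and 6 without scaling (1 to 2 with an array left out). In IRI+Hemin vs Hemin the 5 became 3 with normexp and 2 without scaling (5 to 6). In IPC+IRI vs Hemin the 2 became 1 with normexp or only the groups compared and 0 without scaling or with the deposited matrix (2 to 3). In IPC+IRI vs IRI+Hemin the 4 became 2 with normexp, 0 without scaling or with only the groups compared, 1 with the deposited matrix and 2 without IRI+Hemin replicates 2 and 4 (2 to 6). In the interaction of hemin and injury the 1 called became 0 with normexp, without scaling, with quantile normalization, the percentile over probes well above background, the deposited matrix, no filter on dim genes or without IRI+Hemin replicates 2 and 4, and 2 with the mean of log2 values, the local median subtracted or the strict filter (0 to 2 with an array left out). Gars was lost without Control replicate 1 or 2, IRI 3 or 4, IRI+Hemin 3 or 4, or Hemin 1 or 3. The cause of these changes was not tested.

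The 6 reversals with a call were, with the deposited matrix, Iars in IRI vs Control (−0.0069), Aars in Hemin vs Control (−0.021) and Aars in IPC+IRI vs IRI+Hemin (0.061). They were also Aars in IPC+IRI vs IRI with the mean of log2 values (0.052), Sars in Hemin vs Control without scaling (0.53) and Wars in IRI+Hemin vs Hemin without replicates 2 and 4 (0.47). Without scaling, the median over all genes moved from 0.06 to 0.62 in Hemin vs Control, from 0.08 to 0.45 in IRI+Hemin vs IRI and from 0.09 to 0.41 in IPC+IRI vs IRI. With normexp, 1789 genes were higher and 1394 lower in IRI vs Control, against 3023 and 6007. Iars in IRI vs Control lost its call without Control replicate 3 or IRI replicate 1, 3 or 4 (0.27 to 0.39 over all arrays left out).

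Samples with the same replicate number did not deviate together in every pair (r of 0.05 to 0.15 in IRI vs Control, −0.38 to 0.13 in the others), and in IRI vs Control all 4 correlated best with their own number. With the replicate block the 6 members called in IRI vs Control became 7, Nars passing (0.52, adjusted p = 0.0493). Slide as a random block could not be fitted, since each group has 1 slide. Probes not well above background, such as A_51_P375498 in Control, have only a bound there.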
